A study of Mus musculus with 6 samples.

Results

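Coenzyme Q synthesis was followed here through the transcripts of 10 genes, Pdss1, Pdss2, Coq2, Coq3, Coq5, Coq6, Coq7, Coq8a, Coq9 and Coq10a, which were taken by gene name from the 27021 genes of the deposited table. All 10 were found and all 10 passed the filter on low counts, as did 17146 of all genes. RNA was sequenced in bulk from hearts of 3 Immtfl/fl-Myh6-MCM mice, whose Immt gene carries loxP sites around exon 4, and of 3 control Immt+/+-Myh6-MCM mice, whose Immt gene is unmodified, with 1 library per heart. Immt encodes Mic60, the core subunit of the complex that holds the cristae junctions of the inner mitochondrial membrane. By their labels both groups carry the Myh6-MCM transgene, in which the cardiomyocyte promoter of Myh6 drives a tamoxifen-dependent Cre recombinase, so that the deletion is meant for cardiomyocytes alone. According to the labels and methods, both groups received tamoxifen, given as 3 injections when the mice were 6 weeks old, and hearts were collected 20 weeks later, at an age of 26 weeks, so that these values describe a late stage and no earlier one. The question of the comparison is how transcript levels differ between hearts with and without Immt in their cardiomyocytes.

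Coenzyme Q, or ubiquinone, is a lipid of the inner mitochondrial membrane that carries electrons from complex I, complex II and several other dehydrogenases to complex III. It is made inside mitochondria from a precursor of its ring and a long isoprenoid tail. The tail is built by the prenyl transferase of Pdss1 and Pdss2 and joined to the ring precursor by Coq2. The ring is then hydroxylated and methylated by enzymes that sit together in a complex on the matrix face of the membrane. The heart, with its dense mitochondria, is among the tissues richest in coenzyme Q, and inherited defects of these genes in patients cause disease of heart, brain, kidney and muscle.

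Total counts ranged from 42301627 to 44151674 in the control libraries and from 49793058 to 53251529 in the Immtfl/fl-Myh6-MCM libraries. Immt, the targeted gene, was at 663, 453 and 524 CPM (counts scaled to library size with TMM factors) in the control hearts and at 23.0, 28.7 and 39.2 CPM in the Immtfl/fl-Myh6-MCM hearts. Esr1, the estrogen receptor gene whose hormone-binding part is also in the MCM transgene, had 144479 to 165400 counts in control hearts and 71 to 323 in Immtfl/fl-Myh6-MCM hearts, which goes against a transgene expressed alike in both groups. A difference in the transgene, or in the Cre line behind the deletion, cannot be told apart from the loss of Immt in any comparison below. The tamoxifen schedule of the Immtfl/fl-Myh6-MCM group, its age and its late stage rest on its labels and the methods alone. Mitochondrially encoded transcripts took 19.5% to 23.3% of the counts in control hearts and 8.20% to 8.85% in Immtfl/fl-Myh6-MCM hearts. Among the Immtfl/fl-Myh6-MCM hearts, replicate 3 stood apart from the others, with a chi-square per gene of 124 and 101 against replicates 1 and 2, which differed by 38.3 from each other. It was the highest of the 3 for 6 of the 10 genes and for 39.3% of the genes tested. Counts of the female-specific transcript Xist were 20811 in this heart and 11605 in control replicate 3. The other hearts had 4 to 16, so each group holds 1 Xist-expressing heart, and the methods state that both sexes were used. Whether Immtfl/fl-Myh6-MCM replicate 3 stood apart through its sex was not tested. Among the control hearts it was replicate 2, with 4 Xist counts, that stood apart. Its chi-square per gene was 70.2 and 66.6 against replicates 1 and 3, which differed by 34.65 from each other.

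Most transcripts of the pathway fell in the Immtfl/fl-Myh6-MCM hearts, Coq8a and Coq10a furthest. At an adjusted p under 0.05 (edgeR's quasi-likelihood test, Benjamini-Hochberg adjustment over all genes tested), 7 of the 10 genes fell, against 18.5% of all genes tested, and 0 of the 10 rose, against 19.9%. At an unadjusted p under 0.05, and with DESeq2, the count that rose was 0 as well. These 2 fell past a log2FC of -1, as 10.6% of all genes tested did, and none rose past 1, as 9.91% did. The 3 Immtfl/fl-Myh6-MCM hearts all lay below the 3 control hearts for 7 of the 10 genes, a pattern found in 26.0% of all genes tested, and all above them for none, a pattern found in 26.9%. The median log2FC of the 10 genes was -0.63, where that of all genes tested was 0.00. Without Immtfl/fl-Myh6-MCM replicate 3, 9 of the 10 genes fell, since Pdss1 and Coq7 then passed the test as well, beside 3258 of 17632 genes in all. That fit keeps control replicate 3 as its only Xist-expressing heart, so the groups then also differ in Xist.

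**Figure D1:**
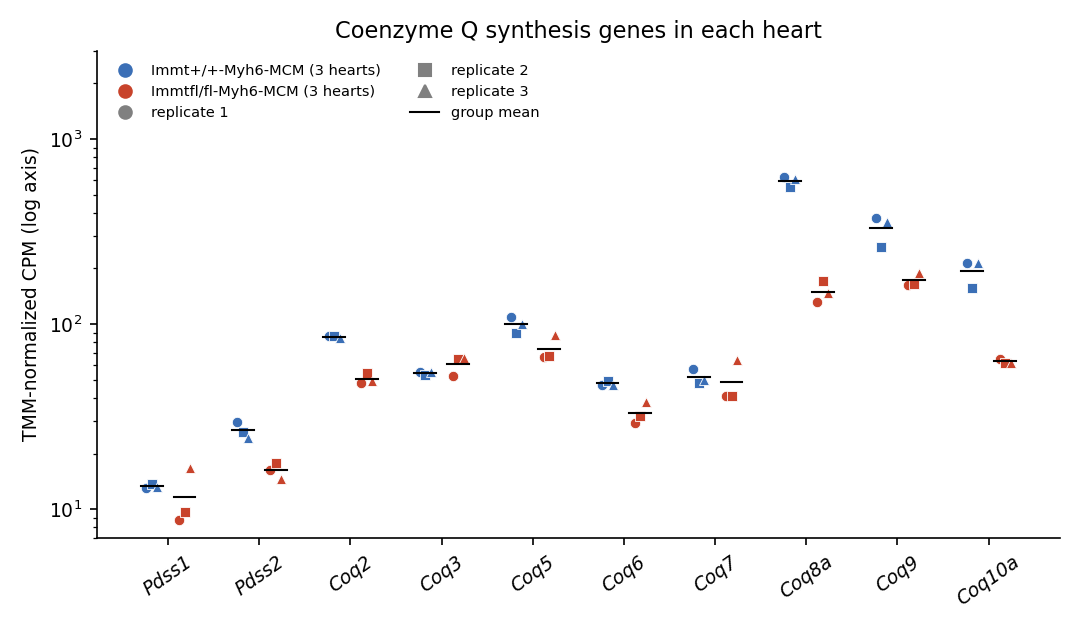
TMM-normalized CPM (log axis) of the 10 coenzyme Q synthesis genes in each heart, blue for Immt+/+-Myh6-MCM and red for Immtfl/fl-Myh6-MCM, with the marker shape giving the replicate and black lines the group means. Coq8a and Coq10a show the widest gaps between the groups, and the triangle of Immtfl/fl-Myh6-MCM replicate 3 is above the other red points for Pdss1, Coq3, Coq5, Coq6, Coq7 and Coq9.

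Of the tail-building subunits, Pdss2 fell and Pdss1 did not pass the test. Pdss2 was at 29.6, 26.1 and 24.3 CPM in the control hearts and at 16.3, 17.8 and 14.7 CPM in the Immtfl/fl-Myh6-MCM hearts. Every Immtfl/fl-Myh6-MCM heart was below every control heart, and 60.9% of the control mean remained (edgeR log2FC -0.71, standard error (SE) 0.148, adjusted p = 0.00465). Pdss1, the catalytic partner of Pdss2, was at 13.1, 13.7 and 13.2 CPM in the control hearts and at 8.79, 9.66 and 16.7 CPM in the Immtfl/fl-Myh6-MCM hearts. Replicates 1 and 2 lay below the controls and replicate 3 above them, so that the groups overlapped. The log2FC of Pdss1 was -0.19 (95% interval -0.74 to 0.36, adjusted p = 0.581 from edgeR), and without Immtfl/fl-Myh6-MCM replicate 3 it was -0.53 (adjusted p = 0.0287). Pdss1 is counted on chromosome 2 of GRCm38 from 22895522 to 22940266 and shares 194 exonic bases with Abi1 on the opposite strand. If strand was not used, reads of the overlap could not be told apart by position, and how they were then counted is not stated. Abi1 itself had 1011 to 1616 counts in control hearts and 2484 to 3168 in Immtfl/fl-Myh6-MCM hearts.

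Coq2, the membrane prenyl transferase that joins the tail to the ring, fell, with control hearts that hardly differed. It was at 85.9, 86.0 and 84.7 CPM in the control hearts and at 47.9, 54.2 and 49.6 CPM in the Immtfl/fl-Myh6-MCM hearts. The groups were well apart, and 59.2% of the control mean was left (edgeR log2FC -0.76, SE 0.109, adjusted p = 6.72e-04).

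Of the ring-modifying enzymes, Coq6 and Coq5 fell, and Coq7 and Coq3 did not pass the test. Coq6, a flavin-dependent hydroxylase, was at 46.8, 49.6 and 47.2 CPM in the control hearts and at 29.4, 31.8 and 37.9 CPM in the Immtfl/fl-Myh6-MCM hearts. These groups did not overlap, with 69.0% of the control mean left (edgeR log2FC -0.54, SE 0.129, adjusted p = 0.0097). Coq5, the methyltransferase that adds the ring's carbon-bound methyl group, was at 109, 89.8 and 101 CPM in the control hearts and at 66.6, 67.2 and 87.0 CPM in the Immtfl/fl-Myh6-MCM hearts. Immtfl/fl-Myh6-MCM replicate 3 came close to control replicate 2, and the fall of Coq5 was the smallest of the 7 (edgeR log2FC -0.44, SE 0.142, adjusted p = 0.0361). Leaving out control replicate 1 or 3, or Immtfl/fl-Myh6-MCM replicate 1 or 2, ended that call, with adjusted p-values from edgeR of 0.0968 to 0.130.

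Coq7, the di-iron hydroxylase of the ring, was at 57.5, 48.4 and 50.2 CPM in the control hearts and at 40.8, 40.8 and 64.0 CPM in the Immtfl/fl-Myh6-MCM hearts. As for Pdss1, replicates 1 and 2 were below all controls and replicate 3 above them. The log2FC of Coq7 was -0.10 (95% interval -0.52 to 0.32, adjusted p = 0.708 from edgeR), and -0.34 without Immtfl/fl-Myh6-MCM replicate 3 (adjusted p = 0.0447). Coq3, the methyltransferase of both oxygen-bound methyl groups, was at 55.0, 53.5 and 54.9 CPM in the control hearts and at 52.8, 64.7 and 66.0 CPM in the Immtfl/fl-Myh6-MCM hearts. It was the 1 gene of the 10 with a mean above the controls, and it did not pass the test (log2FC 0.17, 95% interval -0.11 to 0.44, adjusted p = 0.316 from edgeR).

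Coq9, a lipid-binding protein that presents the quinone intermediate to Coq7, fell. It was at 376, 262 and 358 CPM in the control hearts and at 162, 165 and 190 CPM in the Immtfl/fl-Myh6-MCM hearts. Control replicate 2 was the lowest control heart, yet above every Immtfl/fl-Myh6-MCM heart, and 51.9% of the control mean remained (edgeR log2FC -0.95, SE 0.156, adjusted p = 0.00143). On chromosome 8 of GRCm38, Coq9 (94838321 to 94854895) shares 38 exonic bases with Ciapin1 on the opposite strand.

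Coq8a, also called Adck3, encodes an atypical kinase-like ATPase that the complex of ring-modifying enzymes needs and whose loss in patients causes ataxia. It fell furthest of the 10. It was at 625, 553 and 608 CPM in the control hearts and at 131, 171 and 147 CPM in the Immtfl/fl-Myh6-MCM hearts. The highest Immtfl/fl-Myh6-MCM heart was far below the lowest control heart, and 25.2% of the control mean was left, a mean 3.98 times lower (edgeR log2FC -1.99, SE 0.137, adjusted p = 1.14e-05). The raw counts behind these values were 22285 to 24852 in control hearts and 7722 to 9369 in Immtfl/fl-Myh6-MCM hearts. Over 14 alternative analyses the log2FC of Coq8a stayed between -2.10 and -1.89. The gene lies on the minus strand of chromosome 1 of GRCm38, from 180165238 to 180199602, and shares 366 exonic bases with Cdc42bpa on the opposite strand, which had 2778 to 3245 counts in control hearts and 4817 to 6855 in Immtfl/fl-Myh6-MCM hearts.

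The start regions of Coq8a are shown because this gene moved most and because RefSeq gives it more than 1 start site, which gene counts cannot separate. Both windows below come from RefSeq on GRCm38.p6 and run 5′ to 3′ on the gene's strand, from 250 bases before a start to 50 after it. The capitals mark a match to the motif of NRF1, a factor of nuclear genes for mitochondrial proteins, searched as GCGCANGCG on both strands. The window of start 1 spans chr1:180193436-180193735 and that of start 2 chr1:180195971-180196270.
Coq8a start 1: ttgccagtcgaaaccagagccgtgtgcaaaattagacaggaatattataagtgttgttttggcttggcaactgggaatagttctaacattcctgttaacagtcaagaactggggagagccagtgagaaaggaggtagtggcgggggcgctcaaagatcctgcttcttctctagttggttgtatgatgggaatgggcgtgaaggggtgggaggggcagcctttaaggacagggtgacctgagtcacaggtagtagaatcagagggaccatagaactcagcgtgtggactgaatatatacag
Coq8a start 2: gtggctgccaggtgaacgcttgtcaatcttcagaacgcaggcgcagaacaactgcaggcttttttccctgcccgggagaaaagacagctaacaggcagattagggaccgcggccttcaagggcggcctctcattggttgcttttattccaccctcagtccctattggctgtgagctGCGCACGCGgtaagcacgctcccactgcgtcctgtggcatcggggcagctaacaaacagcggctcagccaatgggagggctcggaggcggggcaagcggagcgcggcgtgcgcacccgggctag
Start 2 has 22 CpG dinucleotides at a GC content of 61.7% and holds the NRF1 letters at position -74, where start 1 has 6 CpG at 48.7% and no match. Positions are counted from the start base as 1, with negative values before it. The same letters occur in 6.25% of 32851 RefSeq windows of this length, so a match describes the sequence and does not show a site in use.

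Coq10a, whose product binds coenzyme Q in a START-type lipid pocket and is thought from work on its yeast relative to help the quinone reach the respiratory chain, had the next largest fall. It is thus a carrier of the product rather than an enzyme of its synthesis. Coq10a was at 213, 156 and 214 CPM in the control hearts and at 65.2, 61.6 and 61.8 CPM in the Immtfl/fl-Myh6-MCM hearts. The Immtfl/fl-Myh6-MCM hearts were nearly alike and far below the lowest control, replicate 2, with 32.3% of the control mean left (edgeR log2FC -1.63, SE 0.145, adjusted p = 4.85e-05). The 14 alternative analyses gave a log2FC between -1.77 and -1.56.

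Coq10a also has more than 1 RefSeq start, and its windows are given for the same reason, with the capitals here marking the motif of the estrogen-related receptors, nuclear receptors that act on genes of cardiac energy metabolism, searched as AAGGTCA on both strands. Start 1 has its window at chr10:128368931-128369230 and start 2 at chr10:128369988-128370287, both on the minus strand.
Coq10a start 1: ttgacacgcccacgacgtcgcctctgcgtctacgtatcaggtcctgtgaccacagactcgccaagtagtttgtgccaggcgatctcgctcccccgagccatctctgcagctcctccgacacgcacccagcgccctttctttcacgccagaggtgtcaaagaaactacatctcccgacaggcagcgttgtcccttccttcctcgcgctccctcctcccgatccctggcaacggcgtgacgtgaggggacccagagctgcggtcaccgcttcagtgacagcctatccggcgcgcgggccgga
Coq10a start 2: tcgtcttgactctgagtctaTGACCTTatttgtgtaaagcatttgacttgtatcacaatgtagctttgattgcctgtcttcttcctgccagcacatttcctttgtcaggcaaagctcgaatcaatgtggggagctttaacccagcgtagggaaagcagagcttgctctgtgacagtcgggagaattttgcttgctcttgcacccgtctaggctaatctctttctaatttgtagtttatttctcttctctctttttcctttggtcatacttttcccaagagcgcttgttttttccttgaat
Start 1 is rich in CpG, with 29 at a GC content of 63.3%, while start 2 has 6 CpG at 42.3% and the receptor motif on its opposite strand at position -230. The gene as counted ends at 128368997, so start 2 lies outside the counted exons. The motif occurs in 4.72% of all windows. Windows were found for 9 of the 10 genes, 12 windows in all, and besides these matches Pdss1 held the receptor motif at -248 and start 2 of Coq3 the NRF1 motif at position 1. The letters TGATGNAA of the C/EBP-ATF element bound by ATF4, found in 3.97% of all windows, were in none of the 12.

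Levels of different genes were set side by side per length, with the authors' FPKM values (fragments scaled by gene length and library size). A bias of reads to the 3′ end, which cannot be judged here, would change these levels and their order. The length is that of all annotated exons merged, so the order also depends on the annotation. In CPM the control mean of Coq7, at 52.0, was above that of Coq6, at 47.8, the reverse of their order in FPKM. In control hearts the order of mean FPKM was Coq8a at 104 ± 6.04, Coq9 at 101 ± 18.1, Coq10a at 70.1 ± 11.5, Coq5 at 30.5 ± 2.80, Coq2 at 30.2 ± 0.50, Coq3 at 16.9 ± 0.16, Coq6 at 14.1 ± 0.55, Coq7 at 7.50 ± 0.69, Pdss2 at 4.15 ± 0.43 and Pdss1 at 2.92 ± 0.09 (SD, n = 3). Coq8a and Coq9 overlapped between hearts, as did Coq5 and Coq2, and the other neighbours were apart. In Immtfl/fl-Myh6-MCM hearts the order of mean FPKM became Coq9 at 52.6 ± 5.11, Coq8a at 26.4 ± 3.77, Coq10a at 22.8 ± 0.52, Coq5 at 22.6 ± 3.72, Coq3 at 19.0 ± 2.44, Coq2 at 18.0 ± 1.27, Coq6 at 9.80 ± 1.37, Coq7 at 7.04 ± 1.99, Pdss1 at 2.57 ± 0.97 and Pdss2 at 2.54 ± 0.25. From Coq8a to Coq2 each neighbour then overlapped the next, and so did Coq6 with Coq7 and Pdss1 with Pdss2, while Coq9 stood alone at the top. The levels thus lay closer together: the highest mean was 35.8 times the lowest in control hearts and 20.7 times in Immtfl/fl-Myh6-MCM hearts. The 3 genes with the highest control FPKM were the 3 with the largest falls, and over the 10 genes the control level and the log2FC had a Spearman's rho of -0.70, as a description of 10 points that share libraries and whose control values enter both measures. Over 17101 tested genes with a control FPKM above 0 that rho was -0.06. The summed FPKM of the 10 genes was 411, 339 and 395 in the control hearts and 167, 184 and 199 in the Immtfl/fl-Myh6-MCM hearts.

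Outside the 10 genes, 8 further genes of coenzyme Q handling were examined. Of these, 2 rose, 1 fell and 5 did not pass the test, with a median log2FC of 0.12. As 19.9% of all genes tested rose and 18.5% fell, these counts are near the background and are no result about the 8 genes as a group. The gene that rose furthest was Coq8b, also called Adck4, the close relative of Coq8a whose loss in patients affects the kidney. Coq8b was at 5.41, 6.50 and 6.67 CPM in the control hearts and at 25.1, 21.8 and 27.1 CPM in the Immtfl/fl-Myh6-MCM hearts. All Immtfl/fl-Myh6-MCM hearts were well above all controls, with a mean 3.98 times higher (edgeR log2FC 1.99, SE 0.170, adjusted p = 3.93e-05). Part of the gene, 455 exonic bases, is shared with Gm15567 on the opposite strand, which had 2 to 7 counts in control hearts and 20 to 51 in Immtfl/fl-Myh6-MCM hearts, against 202 to 273 and 1193 to 1494 counts for Coq8b.

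Because Coq8a and Coq8b moved in opposite directions, their ratio shifted more than either gene. In FPKM, Coq8a was 122, 89.8 and 96.1 times as high as Coq8b in the control hearts and 5.51, 8.29 and 5.71 times as high in the Immtfl/fl-Myh6-MCM hearts. On the log2 scale the ratio differed by -3.99 between the groups, with no overlap (exact permutation test, two-sided, p = 0.1, below which 3 hearts a group cannot go, and 0.15 adjusted over the 3 pairs compared). Because Coq8a lay wholly lower and Coq8b wholly higher in the same hearts, this separation and its p of 0.1 were fixed beforehand. The test therefore adds nothing to the values of the 2 genes. Coq8a remained the more abundant of the 2, with 99.0% of their summed FPKM in control hearts and 86.3% in Immtfl/fl-Myh6-MCM hearts, and that sum was 98.7 to 110 in control hearts and 27.0 to 34.0 in Immtfl/fl-Myh6-MCM hearts. So the gain of Coq8b was small in FPKM beside the fall of Coq8a.

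**Figure D2:**
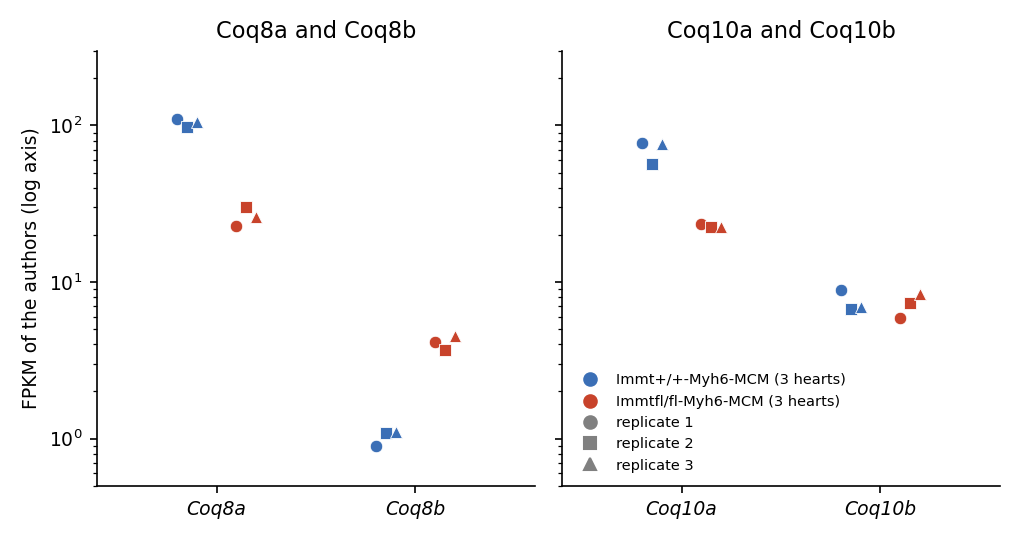
FPKM of the authors (log axis) for Coq8a with Coq8b and for Coq10a with Coq10b in each heart, blue for Immt+/+-Myh6-MCM and red for Immtfl/fl-Myh6-MCM, with the marker shape giving the replicate. Coq8a drops from 97.7 to 110 FPKM in control hearts to 22.8 to 30.3 while Coq8b goes from 0.90 to 1.10 up to 3.66 to 4.55, and Coq10b overlaps between the groups.

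Coq10b, the relative of Coq10a, did not pass the test. It was at 45.9, 34.7 and 35.9 CPM in the control hearts and at 30.5, 37.8 and 42.7 CPM in the Immtfl/fl-Myh6-MCM hearts, so that the groups overlapped (log2FC -0.07, 95% interval -0.44 to 0.30, adjusted p = 0.769 from edgeR). Coq10a was 9.41 ± 1.51 times as high as Coq10b in FPKM in the control hearts and 3.25 ± 0.67 times as high in the Immtfl/fl-Myh6-MCM hearts (SD, n = 3), a log2 difference of -1.54 without overlap (two-sided exact permutation test, p = 0.1, adjusted 0.15). For Pdss1 over Pdss2 the ratio overlapped between the groups (p = 0.3 in the same exact permutation test, adjusted 0.3).

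Of the remaining genes of coenzyme Q handling, Fdxr rose, Stard7 fell and the others did not pass the test. Fdxr, the reductase that feeds electrons through a ferredoxin to the Coq6 step, rose from 8.12 ± 1.63 CPM in the control hearts to 14.2 ± 1.72 CPM (SD, n = 3) without overlap of the groups (edgeR log2FC 0.80, SE 0.201, adjusted p = 0.0115, and 0.0548 without control replicate 1). Stard7, a lipid carrier needed in human cells for the export of coenzyme Q from mitochondria, was at 227, 179 and 224 CPM in the control hearts and at 131, 133 and 169 CPM in the Immtfl/fl-Myh6-MCM hearts (edgeR log2FC -0.54, SE 0.147, adjusted p = 0.0169). That call was lost without control replicate 1 or 3 or Immtfl/fl-Myh6-MCM replicate 1 or 2, at adjusted p-values from edgeR of 0.0590 to 0.0706. Coq4, a member of the synthesis complex, had a log2FC of -0.21 (95% interval -0.62 to 0.20), and it shares 921 exonic bases with Trub2 on the opposite strand. Pptc7, a mitochondrial phosphatase whose yeast relative acts on the Coq7 protein, had a log2FC of -0.30 (95% interval -0.60 to 0.01) and passed the test only without Immtfl/fl-Myh6-MCM replicate 3 (adjusted p = 0.0120 from edgeR) or with upper-quartile factors (0.0389). Hpdl, which in human cells makes a precursor of the ring, had a log2FC of 0.32 with a wide interval (-0.72 to 1.36). Fdx1l, the ferredoxin partner of Fdxr, had 2 to 11 counts in control hearts and 9 to 28 in Immtfl/fl-Myh6-MCM hearts and shares exons with Gm38431 and Gm49373 on its own strand, so its level is uncertain.

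**Figure D3:**
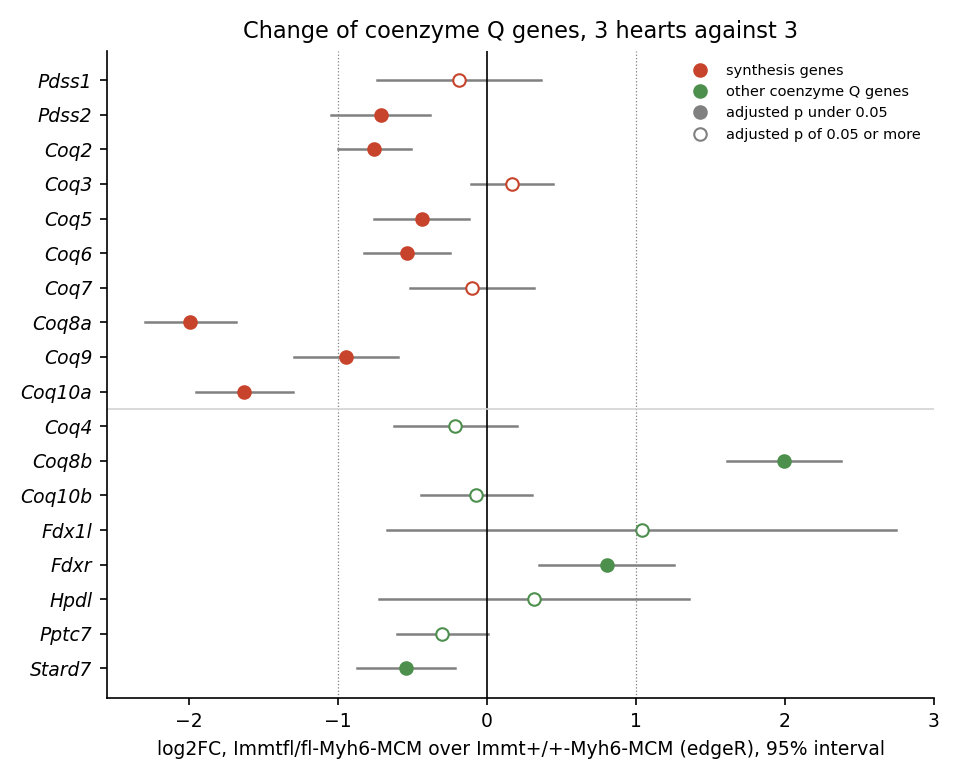
Log2FC from edgeR with its 95% interval for the 10 synthesis genes (red) and the 8 other coenzyme Q genes (green), 3 hearts against 3, with filled points at an adjusted p under 0.05 and dotted lines at -1 and 1. Coq8a at -1.99 and Coq8b at 1.99 sit at opposite ends, and the intervals of Pdss1, Coq3 and Coq7 cross 0.

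Neighbouring steps of the pathway were counted in the same fit. Of the mevalonate pathway, which supplies the isoprenoid units, 8 of 9 listed genes were tested: Ggps1, which makes geranylgeranyl diphosphate, rose (log2FC 0.47, adjusted p = 0.0279 from edgeR), Mvk, mevalonate kinase, fell (log2FC -0.80, adjusted p = 0.0495), and 6 did not pass the test, so that 1 of 8 rose and 1 of 8 fell, no more than the 19.9% and 18.5% of all genes tested. Mvd had a log2FC of 0.47 and Hmgcs1 of -0.19, neither past the threshold, and the median of the list was -0.07. Both calls were lost in several alternatives, Mvk in 8 and Ggps1 in 4 of 14. Fdps did not pass the filter on low counts, with 0 to 32 counts per heart. It shares 1124 exonic bases with Gm43738 on its own strand, so its level is uncertain.

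Enzymes that exchange electrons with coenzyme Q in the respiratory chain were listed without complex I. Among 10 dehydrogenases, 7 fell and 0 rose, against 18.5% and 19.9% of all genes tested, with a median log2FC of -0.55 (with DESeq2 also 0 rose, and at an unadjusted p under 0.05 in edgeR 1, Chdh). Etfdh, which passes electrons from fatty acid oxidation to coenzyme Q, fell by 1.09 on the log2 scale (adjusted p = 0.00118 from edgeR), and the complex II subunits Sdha by 1.05 (adjusted p = 6.98e-04), Sdhb by 0.69 (0.00419) and Sdhc by 0.61 (0.00319). Gpd2 (0.10), Prodh (-0.39) and Chdh (1.77, on 2 to 63 counts per heart) did not pass the test. The count that fell was 4 without control replicate 1, beside 2341 of 18004 genes in all, and 4 without Immtfl/fl-Myh6-MCM replicate 1, beside 2744 of 17540. Of 9 nuclear-encoded subunits of complex III, 8 fell and 0 rose (0 also with DESeq2 and at an unadjusted p under 0.05), with a median log2FC of -0.73, among them Uqcr11 (-1.25, adjusted p = 7.29e-05 from edgeR) and the iron-sulfur protein Uqcrfs1 (-1.05, adjusted p = 9.09e-04), while Uqcr10 (-0.12) did not pass the test. Coq8a and Coq10a were below every gene of both lists in log2FC, while the median of the 10 synthesis genes lay between the medians of these lists.

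Of 3 reductases of coenzyme Q outside the respiratory chain, 2 rose and 0 fell, the latter also with DESeq2 and at an unadjusted p under 0.05, beside 19.9% and 18.5% of all genes tested. Cyb5r3, a cytochrome b5 reductase that can also reduce quinones, was at 73.3, 70.4 and 91.3 CPM in the control hearts and at 220, 225 and 219 CPM in the Immtfl/fl-Myh6-MCM hearts (edgeR log2FC 1.50, SE 0.131, adjusted p = 4.35e-05). Nqo1, a cytosolic quinone reductase, was at 77.8, 76.6 and 66.0 CPM and at 130, 180 and 200 CPM (edgeR log2FC 1.21, SE 0.168, adjusted p = 5.44e-04). For both genes every Immtfl/fl-Myh6-MCM heart was above every control heart. Aifm2, the reductase known as FSP1 that guards membranes against lipid peroxidation, had a log2FC of 0.30 and did not pass the test (adjusted p = 0.0698 from edgeR). Its groups did not overlap either. Aifm2 was at 28.5, 29.4 and 30.6 CPM in the control hearts and at 33.9, 36.7 and 38.7 CPM in the Immtfl/fl-Myh6-MCM hearts. All 3 reductases were higher at an unadjusted p under 0.05 in edgeR. Of 3 further kinase-like relatives of Coq8a, Adck1 fell (log2FC -0.38, adjusted p = 0.0359 from edgeR, and lost in 8 of 14 alternatives), and Adck2 (-0.45) and Adck5 (0.43) did not pass.

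**Figure D4:**
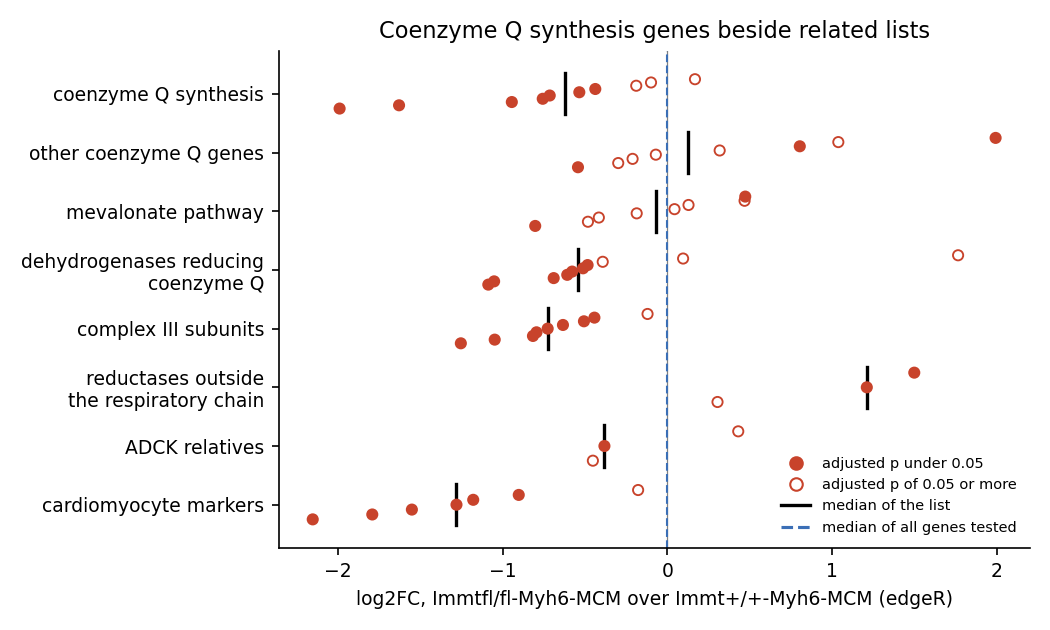
Log2FC from edgeR of each tested gene in the 10 synthesis genes, 6 related lists and the cardiomyocyte markers, with filled points at an adjusted p under 0.05, black bars for the median of each list and a dashed line for the median of all genes tested. The synthesis genes have a median of -0.63, complex III subunits of -0.73 and reductases outside the respiratory chain of 1.21.

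Of 7 markers of cardiomyocytes, 6 fell and 0 rose, against 18.5% and 19.9% of all genes tested. At an unadjusted p under 0.05 and with DESeq2, 0 rose as well. The median log2FC of these markers was -1.28, from Pln at -2.15 to Tnnt2 at -0.18, which did not pass the test. Their summed level was 64810 to 69697 CPM in control hearts and 26706 to 38531 CPM in Immtfl/fl-Myh6-MCM hearts, and none was at 0 in any heart. In bulk tissue, fewer cardiomyocytes and less of a transcript per cardiomyocyte cannot be told apart, and the part of the cardiomyocyte markers in the fall of the synthesis genes was not tested. Called genes among markers of other cells were 0 of 5 for fibroblasts, 0 of 5 for macrophages, 1 lower of 4 for endothelial cells, 2 lower of 5 for smooth muscle and pericytes and 0 of 2 tested for lymphocytes. Beside the 18.5% of all genes tested that fell and the 19.9% that rose, these small counts are not read as a result about those cells. At an unadjusted p under 0.05 in edgeR, 3 endothelial markers and 3 smooth muscle and pericyte markers were lower. The lists with 0 calls then had 1 fibroblast marker lower, 2 macrophage markers higher and 1 lymphocyte marker higher. The last is Cd3e, which DESeq2 also called and which had 2 to 15 counts in control hearts and 16, 76 and 1152 counts in Immtfl/fl-Myh6-MCM replicates 1, 2 and 3, so that replicate 3 carried it. Neither of the adipocyte markers passed the filter on low counts. With mitochondrially encoded genes removed before scaling, 7 of the 10 synthesis genes fell, as they did with a term for the Xist-expressing heart of each group.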

How the data were processed

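The authors deposited raw counts per gene and FPKM values for 6 libraries, 3 hearts per group. The labels name GRCm38 and mm10 as builds, and as tools edgeR 4.0.16, Subread 2.1.1 with featureCounts, STAR 2.7.11 and SAMtools 1.22.1. They describe oligo-dT capture, molecular identifiers and tagmentation. The methods name Illumina Inc. for the libraries of this time point and mention deduplicated reads only for an earlier one, from another provider. Which protocol made these libraries is therefore not settled. For the strand setting and the use of identifiers no statement was found in the labels or methods, so a count may be a read or a molecule, and a bias of reads to the 3′ end, which would change per-length levels, cannot be judged. The FPKM values of the authors equalled the deposited count over gene length and an effective library size in the 11764 to 12476 better-counted genes compared per library. The deposited size-factor-normalised signal, group means, log2 fold changes, p-values and adjusted p-values were not used.

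Counts were filtered with filterByExpr (minimum count 10, minimum total count 15), scaled by TMM and tested by edgeR 4.0.16 (glmQLFit, robust, and glmQLFTest, prior count 0.125) under R 4.3.3, adjusted by Benjamini-Hochberg over 17146 genes. A gene rose or fell at an adjusted p under 0.05. The fit was checked on simulated counts. A standard error is the log2FC over the square root of F. The 10 genes and all lists were chosen with earlier results of these data known. The genes named are these 10, the 8 other coenzyme Q genes, Immt, Esr1 and up to 4 members of each related list with the smallest p, and Fdps, Chdh, Gpd2, Prodh, Uqcr10, Tnnt2, Cd3e and overlapping genes were named after their values were seen. Alternatives were RLE and upper-quartile factors, DESeq2 1.42.0, no filter, a stricter one (mean CPM 1 or more), a replicate block, a term for Xist (over 1000 counts), removal of mitochondrially encoded genes, a fold threshold and each library left out. Promoter windows and gene models came from RefSeq and GENCODE on GRCm38. Running the same alternatives on the related lists was decided after the data were seen. The hearts are numbered in their labels and were taken as separate animals. The p-values of edgeR thus weigh a difference between groups against the spread between animals, with that spread moderated across genes.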

Additional observations from a re-analysis of the deposited data

How the results depend on the processing

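The direction of the 7 genes that fell and the absence of called rises held in every alternative run, while the number that fell ranged from 6 to 9 when 1 library was left out and was 7 with RLE or upper-quartile factors, DESeq2, no filter, the strict filter, the term for Xist and without mitochondrially encoded genes. Requiring a log2FC under -1 as well left 2, Coq8a and Coq10a. Hearts of the same replicate number showed no shared deviation, with correlations of 0.00, -0.06 and 0.01. Such correlations within 3 hearts a group cannot settle whether the hearts were paired. The methods speak of age-matched littermates, and replicate 3 was the Xist-expressing heart of both groups. With the replicate block 6 of the 10 genes fell, Coq5 being lost (adjusted p = 0.0502 from edgeR). Upper-quartile factors moved the median log2FC of all genes by -0.10. Coq8a, Coq10a, Coq9, Coq2, Pdss2 and Coq6 kept their calls in 14 of 14 alternatives, Coq5 in 9. Coq7 had a log2FC between -0.34 and 0.02 and Pdss1 between -0.53 and -0.01 when 1 library was left out. With 3 hearts a group, the 95% intervals of Pdss1, Coq3 and Coq7 leave changes in either direction possible.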
